A study of Mus musculus with 4 samples.

Results

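The inferior vena cava of Cd39-null mice was compared with that of wild-type mice after sham surgery, across all genes that an Affymetrix whole-transcript array measured with a single-symbol probe set. Of the 4 arrays of the study, 2 enter this comparison: 1 hybridised with RNA pooled from 4 wild-type mice and 1 with RNA pooled from 4 Cd39-null mice. The sham operation was a laparotomy with dissection of the vein and no tie, and the other 2 arrays hold the same genotypes 48 h after the vein had been ligated below the kidneys. The mice were aged 8 to 10 weeks and of a C57BL/6J background after 8 or more generations of crossing. The sources used here name neither the allele that removes CD39 nor the time from sham surgery to tissue collection, and they leave the completeness of each ligation unstated. Each of the 18820 measured genes was represented by its brightest probe set over the 4 arrays, and 14115 genes whose mean log2 value reached the 25th percentile (2.29) were kept. Differences are Cd39-null minus wild type in log2 units of RMA values, so that 1 unit is a 2-fold difference. With 1 pooled array a side no test is possible, and the 2-fold limit marks size only.

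CD39, the product of Entpd1, is an ectonucleotidase on the surface of endothelial cells and leukocytes that breaks extracellular ATP and ADP down to AMP, from which CD73 makes adenosine. Through this step it limits the activation of platelets by ADP and shifts the signals of ATP on P2 receptors towards those of adenosine. The abdominal vena cava is a thin-walled vein of endothelium, a little smooth muscle and adventitia, and it lies in fat that holds lymph nodes, nerves and, near the kidneys, brown adipocytes.

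The background was taken from 1006 probe sets of olfactory receptors, genes of nasal sensory neurons. Their 95th percentile was 2.94 on the wild-type sham array and 2.97 on the Cd39-null sham array. Between the sham arrays the differences of these probe sets had an SD of 0.32, and 8 of them (0.795%) were at least 2-fold apart. Probe sets of the same gene, for 1086 genes with several, differed among themselves with a root mean square SD of 0.398. Both are spreads between probe sets; the spread between pools was not measured. The Y-linked genes Eif2s3y, Kdm5d and Uty lay within 0.24 of each other on the sham arrays (5.93 and 6.17, 4.94 and 4.90, 4.53 and 4.56), and Xist was under the filter on both (1.90 and 1.74). The tissue label was borne out by the endothelial junction gene Cdh5 (8.37 and 7.28) and the smooth muscle myosin Myh11 (9.46 and 7.79), both far above the background. The array labelled Cd39-null, ligated, had Entpd1 at the wild-type level, against its label. It has no part in the sham differences except through the choice of probe set and filter, and with both chosen on the sham arrays alone the counts below were 429 genes higher and 503 lower.

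Of the 14115 genes, 416 (2.95%) were at least 2-fold higher in the Cd39-null sham vein and 499 (3.54%) at least 2-fold lower, 6.48% in all. The higher side reached further, with 18 genes at least 8-fold higher against 2 at least 8-fold lower, and 58 against 26 at 4-fold. Immunoglobulin genes were among the 18, from Igkv6-23 (4.35) to Igkv10-96 (6.85). Some of them, and Jchain, passed the filter only through the Cd39-null sham array. At 1.5-fold the order was turned, with 1230 genes higher and 1962 lower, and the median difference of all genes kept was -0.07. The split into higher and lower depends on the scaling: 45.5% of the 2-fold genes were higher in the deposited values, 50.5% after quantile normalisation of the 4 arrays (506 and 497), 56.6% after centring (494 and 379) and 58.4% after cyclic loess (496 and 353). In 101 of the 416 higher genes and 80 of the 499 lower ones, at least 1 sham array was at or under the background. In 5 and 2 of these both were. With every value raised to its array's background, 366 genes were higher and 453 lower. For a gene with only its dim array at or under the background, the fold is given below as a lower bound, the bright value over the background. The lists of genes for cell types, tissues and pathways held 643 of the kept genes, with 92 of the higher genes and 62 of the lower ones. Lists of vein wall cells and matrix held 45 lower genes and 0 higher ones among 116 kept. Adipose lists held 22 higher and 0 lower genes among 38 kept, metabolic lists 24 and 1 among 65, and leukocyte lists 31 and 3 among 116.

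**Figure D1:**
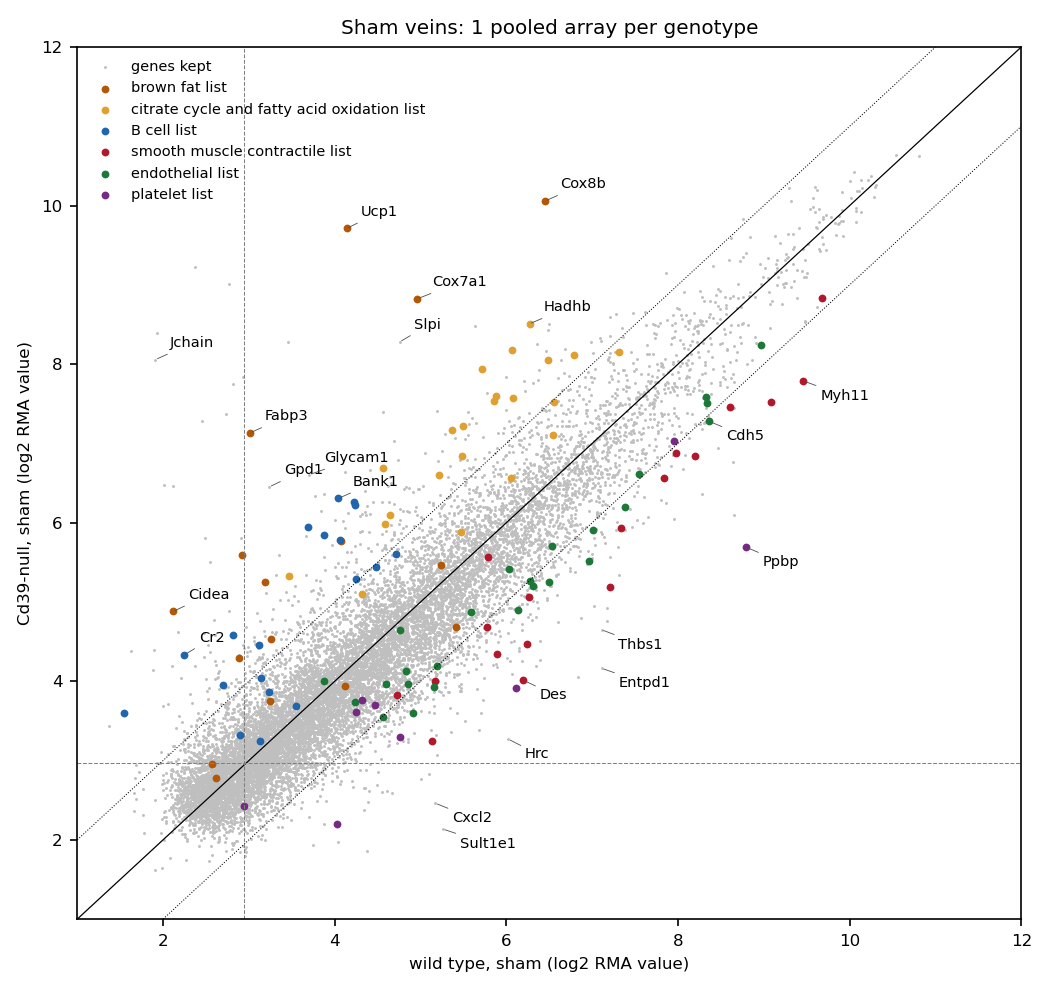
Log2 RMA value of each kept gene on the wild-type sham array (horizontal) and the Cd39-null sham array (vertical), with 6 gene lists in colour; the solid line marks equal values, dotted lines 2-fold differences and dashed lines the olfactory receptor background of each array (2.94 and 2.97). Ucp1 (4.14 and 9.71) and Cox8b (6.45 and 10.06) stand far above the line, and Entpd1 (7.11 and 4.16) and Ppbp (8.79 and 5.69) far under it.

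The targeted gene came first as a check of the labels. Entpd1 was at 7.11 in wild type, sham, and at 4.16 in Cd39-null, sham, a difference of -2.95 or 7.73-fold, the third lowest of all genes kept. The residual value lay above the background, and whether the probe set covers the deleted part of the gene was not tested. Among the 16 measured genes nearest to Entpd1, 8 on each side, 10 passed the filter and their differences ran from -0.68 (Tm9sf3) to 1.72 (Blnk, an adaptor of the B cell receptor, which is also a member of the B cell list). No other neighbour was 2-fold apart. The purinergic list, which covers ectonucleotidases, P2 receptors and adenosine enzymes, had 2 of 25 kept members higher, 1 lower and a median of 0.02. The lower member was Entpd1 itself. The higher ones were adenosine deaminase Ada (4.22 in wild type and 5.38 in Cd39-null, 1.16) and Dpp4 (3.21 and 4.28, 1.08), the surface peptidase that binds adenosine deaminase in humans. Entpd5, a related nucleotidase of the endoplasmic reticulum, came next at 0.81.

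Genes of brown fat were among those with the largest differences in sham veins. Ucp1, the proton channel that lets brown fat mitochondria make heat, had a log2 value of 4.14 in wild type, sham, 9.71 in Cd39-null, sham, 2.03 in wild type, ligated, and 2.26 on the ligated array labelled Cd39-null. The Cd39-null sham array thus stood alone at the top, 47.6-fold above the wild-type sham array, while both ligated arrays were under the background. Fabp3, a fatty acid carrier of oxidative tissues, was at 3.01, 7.13, 3.00 and 2.79 in the same order, a difference of 4.12, and its other probe set gave 4.47. Cox7a1, a muscle and brown fat subunit of cytochrome c oxidase, was at 4.96, 8.82, 4.11 and 3.83, which is 14.5-fold higher in the Cd39-null sham vein. Cox8b, its partner subunit in the same tissues, was at 6.45, 10.06, 3.43 and 3.22, or 12.2-fold higher. For these genes the Cd39-null sham value was above each of the other arrays. In bulk tissue such as this, more cells of a type and more RNA per cell cannot be told apart.

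Of 20 brown fat genes 16 passed the filter, and 10 of those were at least 2-fold higher and 0 lower, where 2.95% of all genes were higher. The list's median difference was 1.55, against -0.07 for all genes kept, and the sum of its linear values was 319 on the wild-type sham array and 2824 on the Cd39-null one. The lipid droplet protein Cidea went from 2.12, under the background, to 4.88, at least 3.84-fold. The fatty acid transporter Slc27a2 went from 2.91 to 5.59, at least 6.28-fold. Ppargc1a, the coactivator that drives the making of mitochondria, differed by 1.69. Not every brown fat gene was high: Dio2, which makes active thyroid hormone in brown fat, differed by 0.51, the determination factor Prdm16 by -0.18 and the potassium channel Kcnk3 by -0.72. Members such as Cidea and Slc27a2 passed the filter only through the Cd39-null sham array, since the mean of their other arrays was under 2.29. With no filter, 10 of 18 members were at least 2-fold higher and the median was 1.34. With the filter at the median of genes, fewer members are tested and 6 were at least 2-fold higher.

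Genes for the burning of fatty acids and the citrate cycle were higher in the Cd39-null sham vein. All 22 kept members differed in the positive direction, 16 of them at least 2-fold, with a median of 1.47. Hadhb, a subunit of the mitochondrial trifunctional protein of beta-oxidation, was at 6.27 in wild type and 8.51 in Cd39-null, sham, and at 6.24 and 6.22 on the ligated arrays. Decr1, which prepares unsaturated fatty acids for oxidation, had 5.71 and 7.94 in the sham veins and 5.96 and 5.47 in the ligated ones. For Suclg1, a citrate cycle enzyme, the sham values were 4.56 and 6.70, and for the acyl-CoA dehydrogenase Acadl 6.06 and 8.17. In each of these the Cd39-null sham array was the highest and the other arrays lay close together, apart from Suclg1, which was lowest in wild type, sham. The respiratory chain was shifted less: 6 of 24 members were at least 2-fold higher and 0 lower, with a median of 0.70. The Rieske iron-sulphur protein Uqcrfs1 (6.20 and 7.79) and the complex I subunit Ndufv1 (3.52 and 5.08) led it, followed by Cox5a (1.38) and Ndufab1 (1.19). Hypoxia and glycolysis genes had 2 of 19 members higher, the mitophagy receptor Bnip3 (1.02) and the hexokinase Hk2, and 1 lower, Ndrg1 (-1.18). Hk2 was under the background in wild type, so its bound is at least 1.49-fold, and with values raised to the background Bnip3 alone was 2-fold higher.

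White adipocyte and lipid storage genes were higher as well, by a smaller margin than brown fat genes. Each of the 22 kept members had a positive difference, 12 were at least 2-fold higher, and the median was 1.05. The hormone leptin, Lep, was at 3.88 in wild type, sham, and 6.36 in Cd39-null, sham, against 4.07 and 3.90 on the ligated arrays. Pparg, the master transcription factor of fat cells, was at 5.77 and 7.64, the fatty acid synthase Fasn at 5.41 and 7.07, and Pck1, which makes glycerol for triglycerides in fat, at 5.25 and 6.90. Other fat cell genes were closer together, such as the hormone Adipoq at 7.62 and 8.66 and the lipid carrier Fabp4 at 8.80 and 9.40. The sum of the list's linear values was 2459 in wild type and 4550 in Cd39-null, sham. Among the 15 genes with the highest differences were also Gpd1, which links glycolysis to triglyceride synthesis (3.24 and 6.45, 9.28-fold), and the adipocyte gene Arxes1 (2.49 and 5.80, at least 7.26-fold). How far the amount of fat on the pieces of vein enters these differences was not tested.

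**Figure D2:**
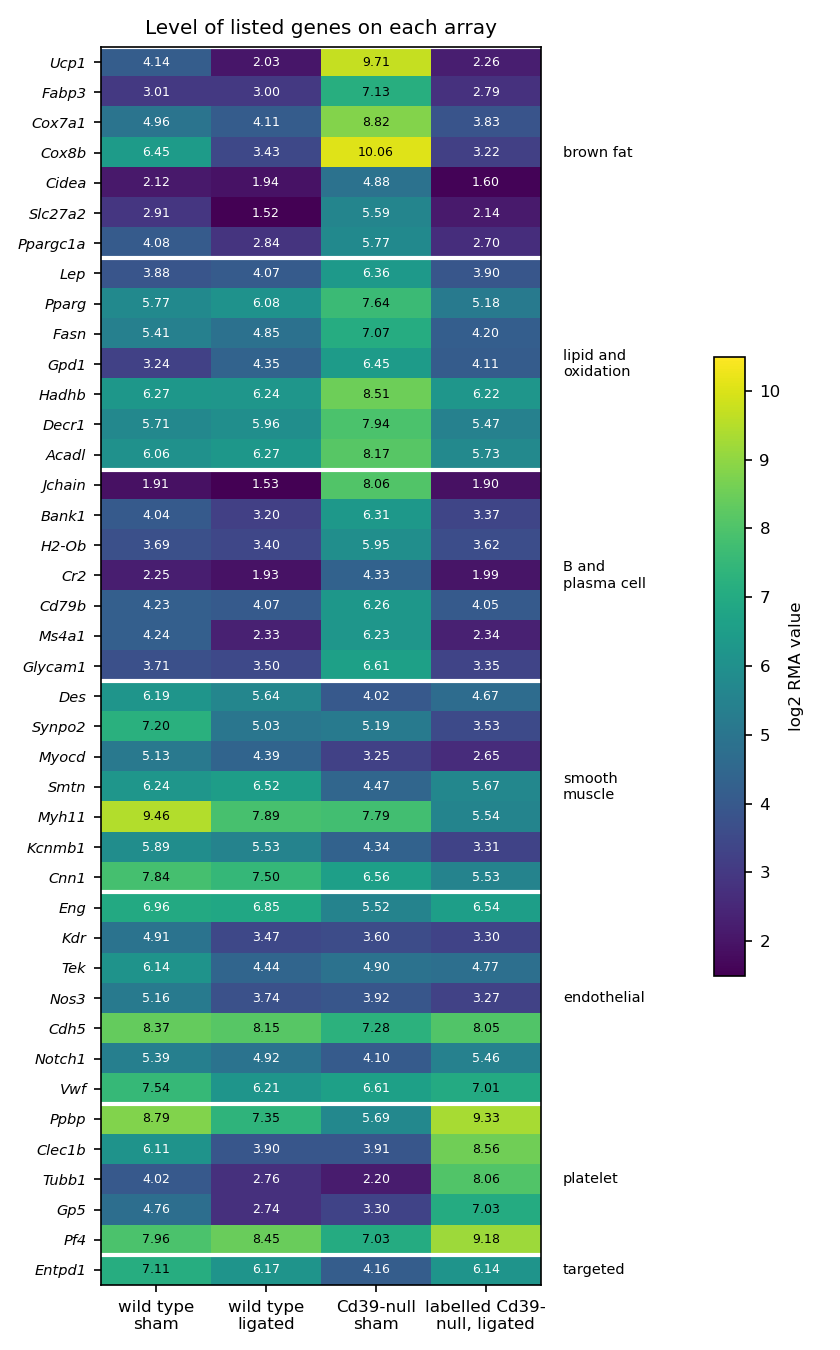
Log2 RMA values of genes described in the text or in the lists (rows) on each of the 4 arrays (columns), with colour from dark (low) to yellow (high) and the value printed in each cell. In the brown fat, lipid and B cell blocks the Cd39-null sham column is the brightest, and in the smooth muscle and endothelial blocks the wild-type sham column is above the Cd39-null sham one.

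B cell and plasma cell genes formed the other large group on the higher side. Jchain, which joins the subunits of secreted IgA and IgM, had the highest difference of all genes outside the immunoglobulin segments. It was at 1.91 in wild type, sham, under the background, at 8.06 in Cd39-null, sham, and at 1.53 and 1.90 on the ligated arrays, so that the Cd39-null sham vein was at least 34.7-fold higher and alone in having a signal. On each of the other arrays Jchain was under the filter of 2.29, so it was kept through the Cd39-null sham array. Of 19 kept B cell genes, 12 were at least 2-fold higher and 0 lower, all 19 differences were positive, and the median was 1.34. The B cell scaffold Bank1 was at 4.04, 3.20, 6.31 and 3.37 in wild type sham and ligated, and Cd39-null sham and ligated. H2-Ob, part of the class II chaperone of B cells, was at 3.69 and 5.95 in the sham veins. Cr2, the complement receptor of B cells and follicular dendritic cells, went from 2.25 to 4.33, at least 2.62-fold. The antigen receptor chain Cd79a went from 1.54 to 3.59, which is at least 1.57-fold, while its partner Cd79b differed by 2.04 with both sham arrays above the background (4.23 and 6.26).

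Of 8 plasma cell genes, 4 were at least 2-fold higher, with a median of 1.03: Jchain, the chaperone Mzb1 (2.60 and 4.59, at least 3.13-fold), Derl3 (3.00 and 4.19) and the survival receptor Tnfrsf17 (2.28 and 3.35, at least 1.33-fold). With the filter at the median of genes, 3 members are tested, 0 were 2-fold higher and the median was 0.51, and with values raised to the background the median was 0.65. Sdc1, a surface proteoglycan of plasma cells that epithelia and other cells carry too, was lower (5.16 and 3.60). Genes of lymph node stroma and vessels had 2 of 6 members higher and a median of 0.70, which was 0.27 with no filter on dim genes and 0.41 with values raised to the background. Glycam1, the mucin of high endothelial venules in lymph nodes, was at 3.71 and 6.61, and at 3.50 and 3.35 on the ligated arrays. Cxcl13, the chemokine that draws B cells into follicles, was at 6.98 and 8.28. Class II and dendritic cell genes, which B cells share in part, had 0 of 15 members 2-fold apart in either direction (1 to 3 higher after rescaling) and a median of 0.19, with the invariant chain Cd74 at 0.95 and H2-Aa at 0.93. The summed linear values of the B cell list were 242 in wild type and 693 in Cd39-null, sham, and 194 and 195 on the ligated arrays. Whether lymph node tissue on the pooled pieces had a part in these differences was not tested.

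T and NK cell genes had 6 of 21 members (28.6%) at least 2-fold higher, where 2.95% of all genes kept were. The list had 0 lower and a median of 0.50. The CD3 chains Cd3d (2.17 and 4.62, at least 3.20-fold) and Cd3g (3.67 and 5.35) had the largest differences, followed by the costimulator Cd28 (2.88 and 4.28, at least 2.53-fold) and the adhesion receptor Cd2 (3.42 and 4.77). Slamf6, an adhesion and signalling receptor of lymphocytes, was among the 15 highest genes (2.54 and 5.51, at least 5.92-fold). Neutrophil genes had 5 of 16 members (31.25%) higher and 0 lower, with a median of 0.55. These were Retnlg (6.49 and 8.43), the chemokine receptor Cxcr2 (4.42 and 6.11), the collagenase Mmp8 (3.28 and 4.91), the antimicrobial peptide Camp (2.73 and 3.92, at least 1.97-fold) and the calprotectin subunit S100a9 (1.07). Ifitm6, a gene of myeloid cells, differed by 2.52 (4.12 and 6.64), and Slpi, an inhibitor of neutrophil elastase, by 3.52 (4.76 and 8.28). Monocyte and macrophage genes were nearer to all genes kept, of which 2.95% were higher and 3.54% lower. In this list 1 of 23 (4.35%) was higher, the chemokine receptor Ccr2 (5.00 and 6.07), and 1 lower, the chitinase-like Chil3 (5.56 and 4.11). The median was 0.15, beside -0.07 for all genes kept, and 13 of the 23 differences were positive (16 after rescaling). Of 8 mast cell genes 1 was lower, the transcription factor Gata2 (-1.23), which endothelial cells also use. The receptor chain Fcer1a was counted as higher, but it lay at or under the background on both sham arrays (1.96 and 2.97), and 0 mast cell genes were higher after quantile normalisation or cyclic loess.

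On the lower side, smooth muscle contractile genes came first. All 18 kept members were lower in the Cd39-null sham vein, 15 of them at least 2-fold, where 3.54% of all genes were, and the median was -1.32. Desmin, Des, the intermediate filament of muscle, was at 6.19 in wild type, sham, 4.02 in Cd39-null, sham, and 5.64 and 4.67 on the ligated arrays. The actin-bundling Synpo2 had 7.20 and 5.19 in the sham veins and 5.03 and 3.53 in the ligated ones. Myocd, the coactivator that turns on contractile genes, was at 5.13 and 3.25, then 4.39 and 2.65. For Smtn, smoothelin, the values were 6.24 and 4.47, then 6.52 and 5.67. In these genes the Cd39-null array was under the wild-type array in both surgeries. Myh11, with 9.46 and 7.79 in the sham veins, had 7.89 and 5.54 in the ligated ones. The smallest differences belonged to Acta2 (9.68 and 8.84), Pln (-0.90) and the integrin chain Itga8 (-0.22). The summed linear values of the list were 4039 in wild type and 1668 in Cd39-null, sham.

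Many contractile genes are switched on by serum response factor, with myocardin as its partner, at a DNA element called the CArG box. Genes that were at least 2-fold lower and carry this element in their promoter are shown here because they were on the same side as the contractile list. They were picked from 15 such genes after their values had been seen, as genes with a known role in muscle or in actin anchoring. The sequences are the 250 bases before the transcript start, from RefSeq on build GRCm38.p6, read 5′ to 3′ on the strand of the gene, with the CArG box in capitals. Myl9 encodes the regulatory light chain of smooth muscle myosin (9.09 in wild type and 7.52 in Cd39-null, sham), and its promoter lies at chr2:156775214-156775463 on the plus strand. Actc1 encodes cardiac actin (8.64 and 6.76), at chr2:114052876-114053125 on the minus strand. Cnn2, calponin 2, binds actin in smooth muscle and other cells (5.33 and 3.86), at chr10:79988350-79988599 on the plus strand. Vcl, vinculin, anchors actin at cell adhesions (6.35 and 5.28), at chr14:20929148-20929397 on the plus strand.
Myl9: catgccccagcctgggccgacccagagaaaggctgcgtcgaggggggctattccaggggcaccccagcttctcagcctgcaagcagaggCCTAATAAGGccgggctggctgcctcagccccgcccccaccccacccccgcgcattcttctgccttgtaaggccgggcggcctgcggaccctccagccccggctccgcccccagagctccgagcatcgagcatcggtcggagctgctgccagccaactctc
Actc1: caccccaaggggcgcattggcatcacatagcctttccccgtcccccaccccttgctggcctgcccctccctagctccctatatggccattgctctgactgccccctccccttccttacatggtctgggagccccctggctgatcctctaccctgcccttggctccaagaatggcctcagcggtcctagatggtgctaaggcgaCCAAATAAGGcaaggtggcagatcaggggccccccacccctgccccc
Cnn2: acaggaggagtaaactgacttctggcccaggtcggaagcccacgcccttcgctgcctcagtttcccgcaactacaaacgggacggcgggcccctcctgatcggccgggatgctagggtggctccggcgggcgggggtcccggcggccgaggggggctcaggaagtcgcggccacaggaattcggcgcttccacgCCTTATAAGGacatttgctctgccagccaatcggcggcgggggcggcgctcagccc
Vcl: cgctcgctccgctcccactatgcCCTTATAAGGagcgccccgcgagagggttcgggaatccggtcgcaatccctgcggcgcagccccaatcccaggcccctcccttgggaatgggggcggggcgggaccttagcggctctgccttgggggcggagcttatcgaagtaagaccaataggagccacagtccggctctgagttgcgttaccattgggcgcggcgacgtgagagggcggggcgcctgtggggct
The box begins 161 bases before the start in Myl9, 47 in Actc1, 56 in Cnn2 and 227 in Vcl. The CArG box pattern, which reads the same on both strands, was searched in the window from 250 bases before to 50 after the start. Of 14 contractile list members with a promoter in the table, 1 held it (Myl9, 7.14%), against 1.81% of the 27025 genes with a promoter of this length. Among the 380 genes at least 2-fold lower with a promoter, 15 held it (3.95%), against 1.62% of the 11186 kept genes. The shares are descriptions of short windows, and the factor was not measured. Other patterns were searched in the same windows. A pattern called the ERR half-site was held by 1 of 51 members of the brown fat, respiratory chain and oxidation lists. It was in 0 of 333 genes at least 2-fold higher, beside 0.313% of the kept genes. The octamer pattern was held by 2 of 15 B cell list members and 7 of the 333 (2.10%), beside 1.63%.

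Endothelial genes were lower too, by a smaller margin than contractile genes. Of 25 members, 24 had negative differences, 11 were at least 2-fold lower and 0 higher, and the median was -0.93. Under cyclic loess 7 were 2-fold lower. Endoglin, Eng, a co-receptor for BMP ligands, was at 6.96 in wild type and 5.52 in Cd39-null, sham, and at 6.85 and 6.54 on the ligated arrays. The VEGF receptor Kdr had 4.91 and 3.60 in the sham veins, the matrix protein Mmrn2 6.50 and 5.26, and the angiopoietin receptor Tek 6.14 and 4.90. The nitric oxide synthase Nos3 (5.16 and 3.92) and the junction protein Cdh5 (8.37 and 7.28) were also lower, and the transcription factor Sox17 was the exception (0.12). Genes of flow, veins and arteries had 4 of 21 members lower and a median of -0.28. These were Notch1 (5.39 and 4.10), the connexin Gja4 (5.69 and 4.43), the Notch target Hey1 (4.46 and 3.35) and the arterial ligand Efnb2 (5.74 and 4.68), while the adhesion receptor Selp was at 0.73. Lymphatic endothelial genes had 2 of 6 lower, the lymphatic receptor Flt4 (3.72 and 2.65, at least 1.68-fold) and Mmrn1 (6.57 and 5.34), which platelets carry too. After centring, or with values raised to the background, 1 of the 6 was 2-fold lower. Angpt2, a ligand of Tek released by endothelial cells, was among the 15 lowest genes of all (6.39 and 4.26).

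Other cells and the matrix of the wall were on the same side. Pericyte genes had 2 of 8 members lower and a median of -0.80, led by the receptor Notch3 (4.30 and 3.11) and Higd1b (4.96 and 3.78). Fibroblast genes had 2 of 14 lower, Cd34 (7.94 and 6.86), which endothelial cells also carry, and the fibulin Fbln2 (5.09 and 4.07), with a median of -0.32, and 0 or 1 of them were 2-fold lower after rescaling. Of 24 matrix genes 9 were lower and 0 higher, with a median of -0.74. The largest difference was that of Thbs1, thrombospondin 1, an adhesive protein of platelets and matrix (7.11 and 4.65). The fibrillar collagen chain Col3a1 (6.47 and 5.02), the crosslinking enzyme Lox (7.03 and 5.72) and tenascin Tnc (5.28 and 3.98) came next. Cthrc1, a secreted protein of activated fibroblasts, had one of the 15 lowest differences of all genes (5.68 and 3.38).

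Platelet genes were lower in the Cd39-null sham vein, and here the surgeries did not run the same way. All 9 kept members had negative differences, 4 of them at least 2-fold, and the median was -0.92. Ppbp, the precursor of platelet basic protein, was at 8.79 in wild type, sham, 5.69 in Cd39-null, sham, 7.35 in wild type, ligated, and 9.33 on the ligated array labelled Cd39-null. Clec1b, the podoplanin receptor of platelets, had 6.11, 3.91, 3.90 and 8.56 in that order. The tubulin Tubb1 had 4.02, 2.20, 2.76 and 8.06, so that wild type was at least 2.07-fold higher in sham veins. Gp5, a chain of the von Willebrand factor receptor, had 4.76, 3.30, 2.74 and 7.03. The Cd39-null sham array was the lowest of the 4 for Ppbp and Tubb1, but for Clec1b and Gp5 wild type, ligated, was as low or lower. The summed linear values of the list were 873 in wild type, sham, and 256 in Cd39-null, sham. Red cell genes had 0 of 3 members 2-fold apart, led by the heme synthase Alas2 at -0.50. Cxcl2, a neutrophil chemoattractant, was also among the lowest genes (5.17 and 2.46, at least 4.60-fold lower), and it was the 1 lower member of 25 cytokine and chemokine genes. The list had 2 higher members, the monocyte chemoattractants Ccl7 (3.87 and 5.57) and Ccl8 (4.63 and 6.26), and a median of 0.13.

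**Figure D3:**
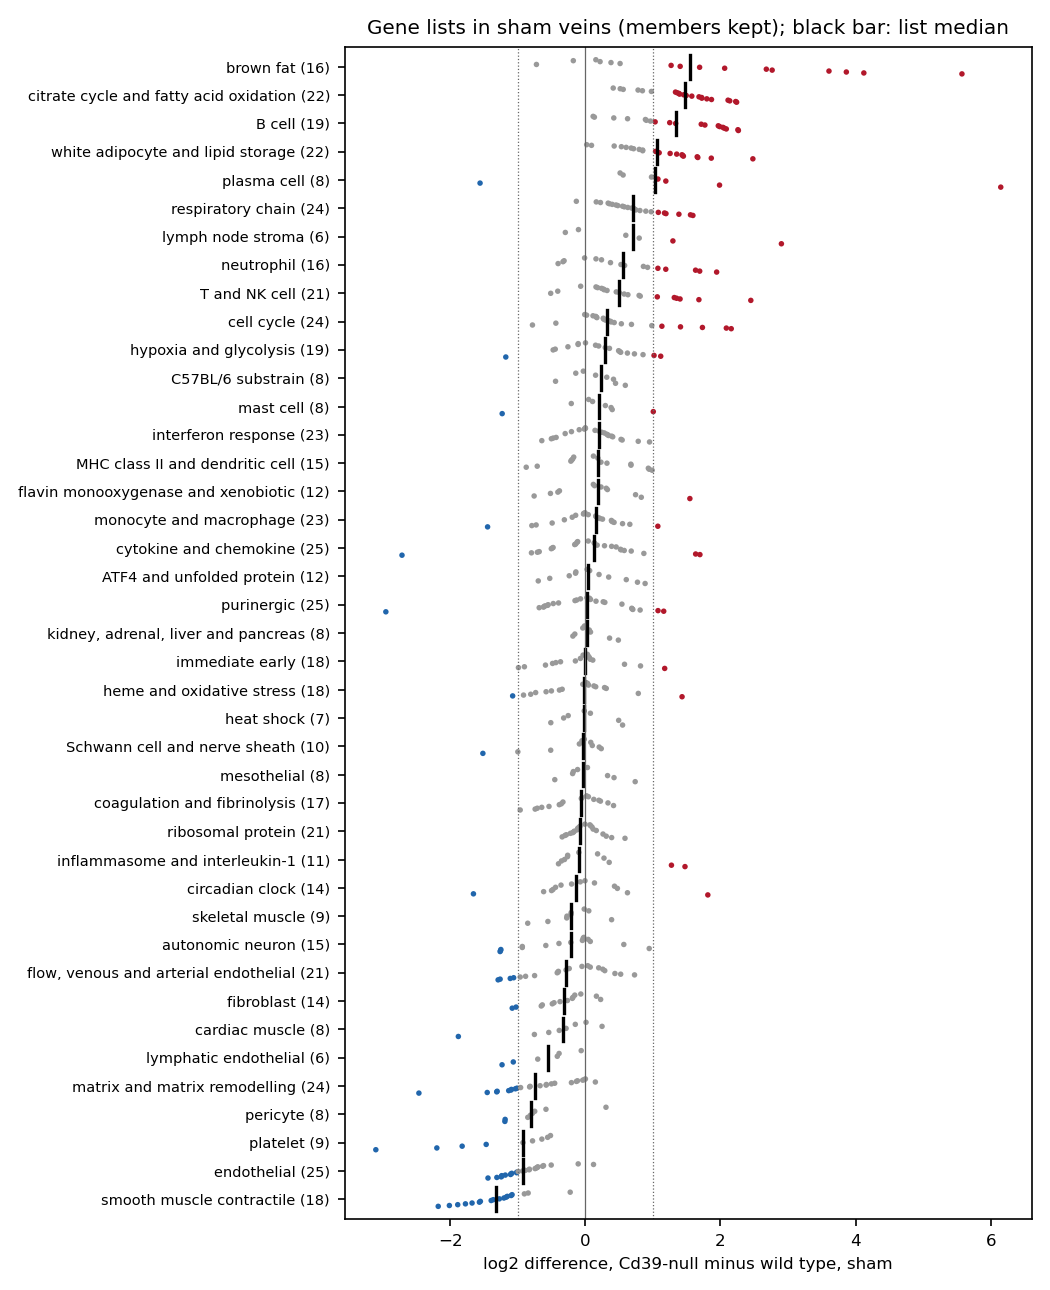
Log2 difference, Cd39-null minus wild type in sham veins (horizontal), for each kept member (points) of the gene lists with at least 6 such members (number in brackets), ordered by their median (black bar). Red points are at least 2-fold higher and blue points at least 2-fold lower; brown fat (median 1.55) and oxidation genes (1.47) lie at the top and smooth muscle (-1.32) and endothelial genes (-0.93) at the bottom.

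The remaining genes among the 15 lowest were not members of one group. Sult1e1, the sulfotransferase that inactivates oestrogen, had the lowest difference (5.26 and 2.13, at least 4.90-fold lower), and its ligated values were under the background too (2.39 and 1.58). Hrc, a calcium-binding protein of the sarcoplasmic reticulum, was at 6.02 and 3.27, and Nkd1, an inhibitor of Wnt signalling, at 5.00 and 2.77 (at least 4.09-fold lower). The cyclase-associated protein Cap2, a regulator of actin in muscle, was at 6.35 and 4.19. The centrosomal Nedd1 was at 5.09 and 2.83 (at least 4.35-fold lower). For a pair of these genes the probe sets disagreed: the small GTPase Mras differed by -2.42 on the brighter and -1.44 on the other, and Pcnp by -2.24 and -0.21. Of the 15 highest genes not yet described, Adtrp, a hydrolase of fatty acid esters that regulates tissue factor pathway inhibitor, was at 2.90 and 5.81 (at least 7.29-fold), and Tmem45b, a membrane protein, at 4.56 and 7.39 (7.15-fold).

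Beyond the fat and lymph node genes above, lists of tissues next to the vein held few 2-fold genes. Many of these markers were dim, which limits what could be seen to differ. The wild-type sham median was 3.03 for mesothelial genes and 3.24 for kidney, adrenal, liver and pancreas genes, beside a background of 2.94. Mesothelial genes (8 kept), skeletal muscle genes (9) and genes of kidney, adrenal, liver and pancreas (8) had 0 members at least 2-fold apart, with medians of -0.04, -0.21 and 0.02. The highest differences there were those of the urothelial and mesothelial Upk1b (0.74) and the adrenal hydroxylase Cyp21a1 (0.49), and the lowest that of the fast muscle troponin Tnnc2 (-0.85). Of 8 cardiac genes Actc1 alone was 2-fold lower, and the list members Myl2 (0.01) and Tnni3 (-0.15) differed little between the sham arrays. Nerve genes were partly lower: 3 of 15 autonomic neuron genes, the noradrenaline enzyme Dbh (6.85 and 5.58), the vesicle sensor Syt1 (6.15 and 4.90) and the noradrenaline transporter Slc6a2 (4.88 and 3.63), and 1 of 10 Schwann cell genes, the fatty acid carrier Fabp7 (7.81 and 6.29). These shares were 20% and 10%, beside 3.54% of all genes kept. After rescaling 1 autonomic neuron gene was 2-fold higher.

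Proliferation genes were higher in part. Of 24 cell cycle genes 5 were at least 2-fold higher and 0 lower, with a median of 0.32. Mki67, the antigen of dividing cells, was at 3.67 in wild type and 5.83 in Cd39-null, sham, against 6.26 and 5.67 on the ligated arrays. The checkpoint kinase Bub1 (a difference of 2.09, at least 2.39-fold), the topoisomerase Top2a (4.37 and 6.10), the kinetochore motor Cenpe (3.06 and 4.47) and the condensin subunit Ncapg (2.62 and 3.75, at least 1.76-fold) were the others, and the wild-type sham array was the lowest of the 4 for each of Mki67, Bub1, Top2a and Cenpe. Replication genes such as Mcm6 (-0.01) and Pcna (0.11) differed little.

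Most pathways of inflammation and stress held few 2-fold genes. Over all genes kept 2.95% were higher and 3.54% lower, so 0 or 1 in lists this short is near that share. The inflammasome list had 2 of 11 members higher (18.2%), the DNA sensor Aim2 (4.23 and 5.71) and caspase 1, Casp1 (4.75 and 6.03), while Il1b was at 0.18. Interferon response (23 kept), coagulation (17), ATF4 and unfolded protein (12), heat shock (7), ribosomal protein (21) and C57BL/6 substrain genes (8) had 0 members 2-fold apart; after rescaling at most 1 of each was. Their differences of largest size belonged to the antiviral Bst2 (0.95), the clotting cofactor F5 (-0.96), the endoplasmic reticulum chaperone Sdf2l1 (0.88), the mitochondrial chaperonin Hspd1 (0.55), Rps9 (0.59) and Nnt (0.59). Nnt is known to carry a deletion in C57BL/6J. Among immediate early genes 1 of 18 was higher, Myc (5.96 and 7.13), and among heme and oxidative stress genes 1 of 18 was higher, haptoglobin Hp (6.36 and 7.80), and 1 was counted as lower, the quinone reductase Nqo1. Its values (2.95 and 1.88) lay at the background or under it, and with values raised to the background 0 were lower. Among 14 clock genes the repressor Bhlhe41 was higher (4.12 and 5.94) and Npas2, a partner of the clock activator, lower (4.51 and 2.85, at least 2.90-fold). Of 12 xenobiotic genes 1 was higher, the carboxylesterase Ces1d (4.69 and 6.23), which adipocytes also express.

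The ligated veins offer a second look at the genotypes, with the limit that Entpd1 was alike on both ligated arrays (6.17 and 6.14) and the label of 1 of them is in doubt. The sham and ligated differences share no array. Of the 416 genes higher in sham veins, 38 were at least 2-fold higher in ligated veins too, 9.13% of the sham list and 7.45% of the 510 ligated ones (3.61% of all genes kept), 363 were within 2-fold and 15 were lower. Of the 499 lower genes, 77 were lower in both, 15.4% of the sham list and 20.5% of the 375 ligated ones (2.66%), 390 were within 2-fold and 32 were higher. The median ligated difference was 0.01 for the sham-higher genes and -0.29 for the sham-lower ones, beside -0.03 for all genes kept.

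**Figure D4:**
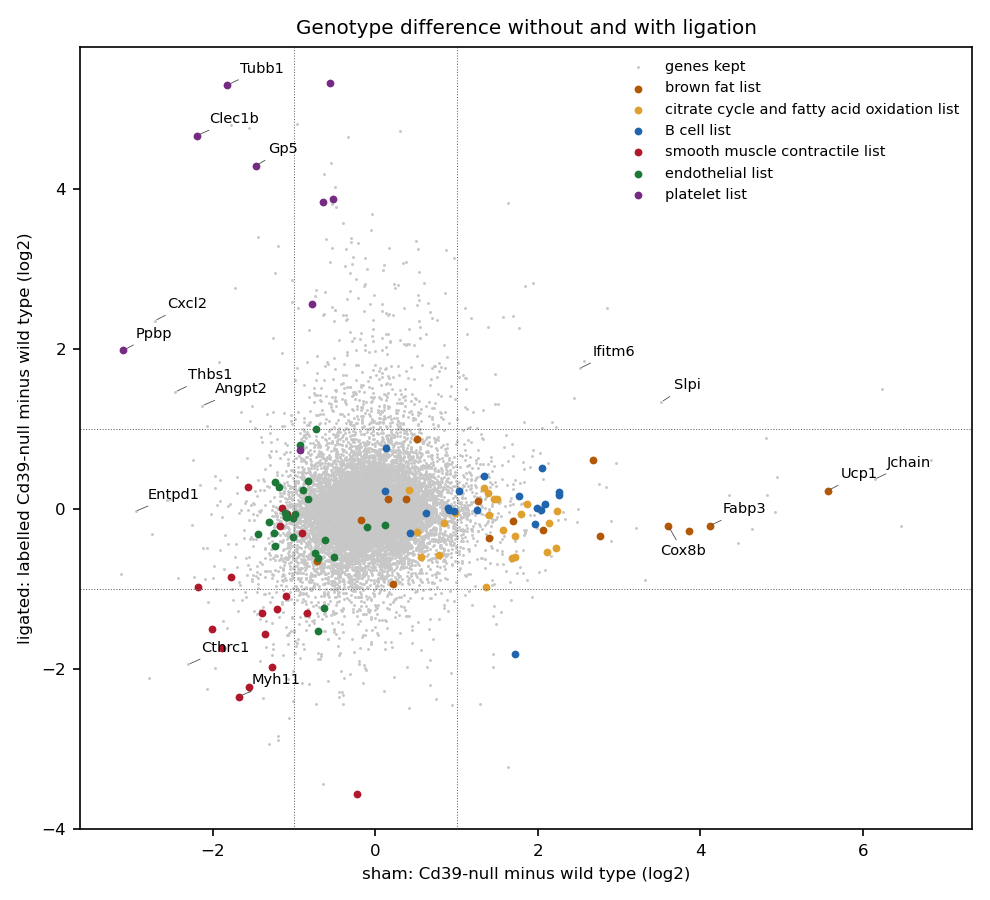
Genotype difference (log2) of each kept gene in sham veins (horizontal) and in ligated veins, where the array labelled Cd39-null was compared with wild type (vertical); dotted lines mark 2-fold and 6 gene lists are in colour. Brown fat, oxidation and B cell genes lie to the right near a vertical value of 0, smooth muscle genes mostly to the lower left, and Clec1b (-2.20 and 4.67) and other platelet genes at the upper left.

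Some lists had like medians in both surgeries and others did not. Smooth muscle genes were lower in both: 11 of 18 were at least 2-fold lower in ligated veins, with a median of -1.27 beside -1.32 in sham veins. Pericyte genes had medians of -0.80 in sham and -0.94 in ligated veins. For brown fat, citrate cycle and oxidation, B cell and plasma cell genes, 0 members were at least 2-fold higher in ligated veins, with medians of -0.18, -0.18, 0.01 and 0.04, and for white adipocyte genes 2 of 22 were lower there, with a median of -0.41. Their medians on the wild-type sham array were nearer to the ligated arrays than to the Cd39-null sham array, as brown fat genes show (3.25 in wild type, sham, 5.07 in Cd39-null, sham, and 2.92 and 2.77 in ligated veins). Endothelial genes had 2 of 25 members lower and a median of -0.17 in ligated veins. Platelet genes turned to the opposite side, with 8 of 9 members higher and a median of 3.87. Neutrophil genes were higher in both, with medians of 0.55 and 2.30 and 12 of 16 members at least 2-fold higher in ligated veins. Of the 15 highest genes, Slpi (3.52 and 1.34) and Ifitm6 (2.52 and 1.76) kept a difference of 2-fold or more in ligated veins. Of the 15 lowest, Cthrc1 (-2.30 and -1.95) alone was at least 2-fold lower in both surgeries. None of these differences between the surgeries was tested, since each rests on 1 pool a group.

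**Figure D5:**
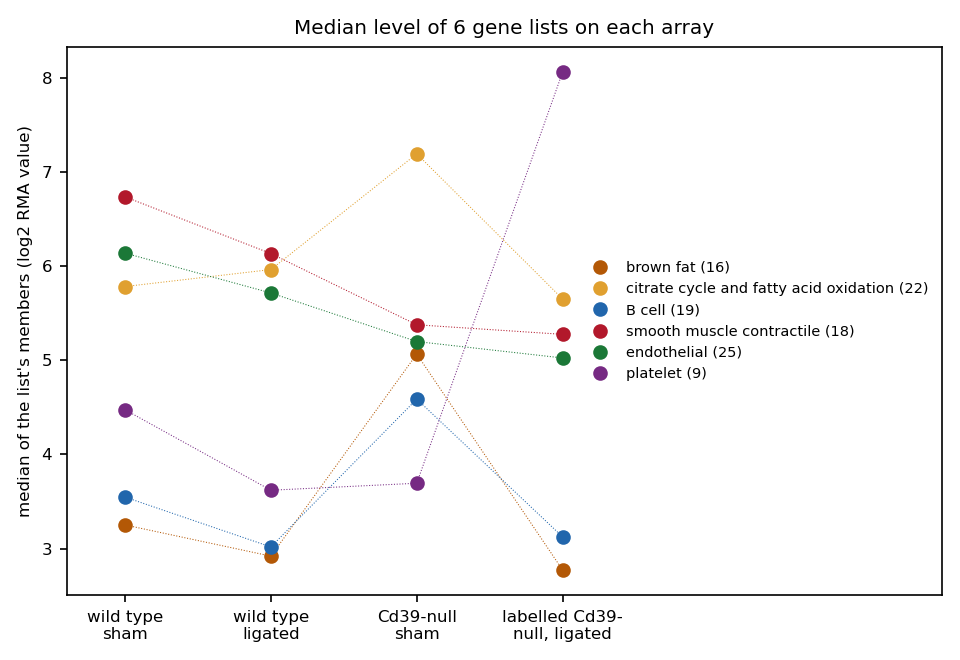
Median log2 RMA value of the kept members of 6 gene lists (number in brackets) on each of the 4 arrays; dotted lines join the values of a list and stand for no order of the arrays. The brown fat, oxidation and B cell medians peak on the Cd39-null sham array (5.07, 7.19 and 4.59), the smooth muscle medians are 6.74 and 5.38 in sham veins, and the platelet median peaks at 8.06 on the array labelled Cd39-null, ligated.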

How the data were processed

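RNA was measured in pooled inferior vena cava tissue, 4 mice to a pool and 1 array to each of 4 groups. Per the labels' protocols, total RNA (50 ng) was amplified to cDNA, of which 3 µg was labelled with biotin. The values deposited by the authors are on the log2 scale, 1 per probe set, and the submitters' processing notes name oligo and RMA without versions, while any genome build is not given in the sources used here. The RMA method corrects for background, gives the probe values of all arrays 1 distribution and combines the probes of each probe set. A change in the total RNA of a group is thus hidden. The combined values differed slightly in level, with medians of 3.04 and 3.03 on the wild-type and Cd39-null sham arrays and 2.99 and 2.97 on the ligated ones. The values were used as deposited. Arrays have no read depth, and their number limits the precision.

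Of 35556 probe sets, the platform annotation gives 21218 a single gene symbol, 1881 several and 12457 none. Of the former, 21185 matched a RefSeq table of assembly GRCm38.p6 by Entrez identifier and 33 did not, and 0 symbols differed. The brightest probe set by mean over the 4 arrays stood for each of 18820 genes (1386 had several), and genes under the 25th percentile of that mean (2.29) were left out, leaving 14115. Differences were taken with Python 3.11.15, numpy 2.4.6 and pandas 2.3.3, drawn with matplotlib 3.10.9, and the counting was tested on simulated data. No test was made. The 43 gene lists, the members and the comparisons were chosen with earlier results of these data known.

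Genes were named by a rule: the 15 highest and 15 lowest differences with at least 1 sham array above the background, leaving out predicted, RIKEN, small RNA, T cell receptor, immunoglobulin, olfactory and vomeronasal symbols, up to 4 members of each list by size of difference, Entpd1 with its neighbours, and sex linked genes. Other genes were named after their values had been seen. Alternatives were quantile normalisation and cyclic loess (limma 3.58.1 in R 4.3.3), centring, other filters and other choices of probe set, and, added after seeing the data, quantile normalisation of the sham arrays alone and raising values to the background. Promoters came from RefSeq, GRCm38.p6.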

Additional observations from a re-analysis of the deposited data

Results flagged for a closer look

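Among the 15 lowest genes of the sham comparison, 5 were at least 2-fold apart in the opposite direction between the ligated arrays, where the array labelled Cd39-null was compared with wild type. The differences in ligated veins were 4.67 for Clec1b, 2.35 for Cxcl2, 1.98 for Ppbp, 1.46 for Thbs1 and 1.29 for Angpt2, against -2.20, -2.71, -3.10, -2.46 and -2.13 in sham veins. Clec1b and Ppbp are platelet genes, Thbs1 is stored in platelets as well as laid down in matrix, Cxcl2 draws neutrophils and Angpt2 is released by endothelial cells. Each group holds 1 pool, so the difference between the surgeries was not tested, and on the ligated array labelled Cd39-null the Entpd1 level goes against that label.

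Probe sets outside the gene comparison also carried differences. Of 1881 probe sets with several gene symbols, 55 (2.92%) were at least 2-fold higher in the Cd39-null sham vein, 53 of them above the background there. The lower ones numbered 34 (1.81%). Among genes kept after the filter on dim genes the shares were 2.95% higher and 3.54% lower. With no filter, 443 of 18820 genes were higher and 504 lower, and no filter was applied to the probe sets with several symbols. All 16 of these probe sets whose symbols were immunoglobulin genes were higher, by up to 6.82. Of 12457 probe sets with no symbol, 1067 (8.57%) were at least 2-fold higher, 771 of them above the background, and 746 (5.99%) were lower.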

How the results depend on the processing

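A total of 84 results (the counts of genes, Entpd1, list medians, list counts and named genes) were recomputed under 9 alternatives. Of 750 recomputed values, 738 stayed within 1.5 times a count or within 0.398 of a log2 value, the spread among probe sets of a gene, 12 moved by more, and 0 changed sign among differences of at least 2-fold. Under cyclic loess 7 endothelial genes were at least 2-fold lower in place of 11. With no filter on dim genes the median of the lymph node stroma list was 0.27 in place of 0.70. With the filter at the median of genes, which tests fewer genes, 6 brown fat genes were at least 2-fold higher in place of 10 and the plasma cell median was 0.51 in place of 1.03. With the mean of a gene's probe sets Mras differed by -1.93 and Pcnp by -1.23. With values raised to the background 6 named genes moved, such as Jchain to 5.12 and Cidea to 1.94. The genes 2-fold apart the same way in both surgeries numbered 115 in the deposited values and between 98 and 115 under the alternatives. No paired analysis was possible because each group holds 1 array and the labels carry no replicate numbers. Dim genes are limited by the background: 2864 kept genes on the wild-type sham array and 3199 on the Cd39-null sham array were at or under it. The cause of the endothelial and lymph node changes was not tested.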

Other observations

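Immunoglobulin segments and constant regions, left out of the ranking of genes, had the largest differences on the sham arrays. Of 15 kept, 13 were at least 2-fold higher in the Cd39-null sham vein and 0 lower. In 7 of the 15 the mean of the other 3 arrays lay under the filter, so they were kept through the array on which they were high, and their count is a description that the filter fixes in part. In 12 the wild-type sham value was at or under the background. With values raised to the background 12 were 2-fold higher, the median was 4.34 and the highest difference 6.28. The kappa variable segment Igkv10-96 was at 2.38 in wild type, sham, under the background, 9.22 in Cd39-null, sham, 1.80 in wild type, ligated, and 2.42 on the ligated array labelled Cd39-null. The kappa constant region Igkc was at 2.93, 7.84, 2.57 and 2.52 in the same order. Among heavy chain constant regions, Igha of IgA was at 3.46 and 8.27 in the sham veins, Ighg3 of IgG3 at 2.45 and 7.28, and Ighm of IgM at 3.37 and 5.02. The Cd39-null sham value was the highest of the 4 for each of the 15. In wild type, sham, Igkv4-55 (4.01), Igha and Ighm were above the background. On the array labelled Cd39-null, ligated, Igha was at 4.35 and Igkv1-117 at 3.87. Segments share sequence, so transcripts of one can bind the probes of another. Of 8 kept T cell receptor segments, 0 were 2-fold apart, and their median was 0.00.

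Gene families were looked at by the form of their symbols, chosen after values had been seen. The nuclear-coded subunits of complex I, taken as symbols that begin with Nduf without assembly factors, Ndufa4 and Ndufa4l2, had 9 of 34 members at least 2-fold higher and 0 lower, with a median of 0.64, and the mitochondrial ribosome had 7 of 74 higher and 0 lower, with a median of 0.27, while ribosomal proteins of the cytosol had 0 of 67 on either side, with a median of -0.01. Actin-binding calponins, tropomyosins, actinins and Pdlim proteins had 8 of 15 members lower, with a median of -1.10, among them Tpm1 (7.86 and 6.25 in sham veins) and Actn1 (7.59 and 5.99). Potassium channel genes (symbols that begin with Kcn) had 4 of 54 lower, which is 7.41% against 3.54% of all genes, and 1 higher, Kcnj13 (1.56). The lower ones included Kcnma1 (5.10 and 3.61) and Kcnmb1 (5.89 and 4.34), both subunits of the large-conductance channel of smooth muscle, and Kcnab1 (5.35 and 3.36). Ephrins and Eph receptors had 4 of 14 lower, led by Efna5 (5.71 and 4.22). On the higher side, Gimap genes of lymphocytes had 3 of 8 members at least 2-fold higher, led by Gimap7 (2.97 and 4.68), and the interferon-inducible Ifi200 family 3 of 6, led by Ifi213 (3.35 and 5.59).

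Small nuclear and nucleolar RNA genes had 8 of 44 kept members at least 2-fold higher and 1 lower. Rnu3a was at 5.63 and 8.48 in sham veins and at 5.47 and 7.98 in ligated ones, and Snord49b at 3.77 and 6.34, then 3.91 and 5.76, so that both were higher on the array labelled Cd39-null in both surgeries. Of 132 kept microRNA genes 3 were higher and 2 lower, smaller shares than the 2.95% and 3.54% of all genes kept. Among the higher ones, Mir142 was under the background on both sham arrays (1.68 and 2.78). Mir143, the gene of a microRNA of smooth muscle, was at 4.03 and 1.98 in sham veins, at least 2.09-fold lower. The values of Mir302b were 4.37 and 1.85, at least 2.65-fold lower. These probe sets read precursor transcripts, and mature microRNAs were not measured.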
